A study of Danio rerio with 12 samples.

Results

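Transcript abundance in the ovary of adult zebrafish was compared with that in the male body, meaning whole males from which the testes had been removed. The comparison used the 3 ovary arrays and the 3 male body arrays of a series of 12. It was chosen because the male body carries no ovary and so holds no RNA from ovarian tissue. Many transcripts that the ovary shares with other tissues are still present in this reference. All fish were wild type of the AB laboratory strain, full siblings and 4 to 12 months old. They had been allowed to spawn in pairs, after which the sexes were kept apart for 5 days. RNA from each fish's tissue was hybridised to 1 Affymetrix zebrafish array, so p-values measure the spread between 3 fish a group. The ovaries came from females and the bodies from males, so effects of tissue and of sex cannot be told apart here. The remaining arrays, 3 of female body without ovaries and 3 of testis, are used only where they show how the reference matters.

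An ovary is made up largely of oocytes of several stages, each wrapped in follicle cells. A growing oocyte makes and stores mRNA and protein that the embryo will use before its own genome is switched on, and around itself it lays down an egg coat built from zona pellucida (ZP) domain proteins. Yolk protein is taken up rather than made by the oocyte, since vitellogenin is secreted by the liver of females and enters through receptors on the oocyte surface.

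Values are array signals in arbitrary units, scaled by the authors to a common trimmed mean. Signals below 32, called the floor here, were set to 32 before the log2 difference (ovary minus male body) was taken. Where every array of a group lay at or below the floor, the fold and the log2 difference are bounds on the size of the difference ("at least"). Where only 1 or 2 arrays of the dimmer group did, the floor could also shrink the difference, and such values are not marked as bounds. That was so for 501 probe sets called higher in the ovary and 1111 called lower. On the ovary arrays 33.0% to 35.7% of signals lay at or below the floor, against 10.4% to 11.8% on the male body arrays, and the 100 brightest probe sets held 13.8% to 14.5% and 19.3% to 21.7% of the signal. Pearson's r of log2 signals was 0.975 to 0.983 between ovary arrays, 0.955 to 0.963 between male body arrays and 0.364 to 0.385 across the groups. Of 15502 probe sets, 14919 were above the floor on at least 1 of the 6 arrays and were tested with limma, with Benjamini-Hochberg adjustment at 0.05.

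Most of the array differed between ovary and male body. Transcript abundance was higher in the ovary for 4649 probe sets (31.2% of those tested) and lower for 6422 (43%), and 3848 were not called. Counts of called members of every gene list further on are to be read beside these shares, with a limit. The shares count probe sets, many without a gene name, whereas the lists count named genes. Of 8648 named genes tested, the higher probe sets represented 3379 and the lower ones 3468, and a gene can be in both. Named genes were therefore split more evenly than the shares, which lean further to the lower direction. The shares given for testis further on are also of probe sets. Groups did not overlap for 12119 probe sets (81.2%). The called probe sets had a median log2 difference of 1.86 where higher and -2.14 where lower, and the median over all probe sets tested was -0.35. The balance of the directions depended on the scaling of the arrays: 42% of the calls were in the higher direction as deposited, 52.1% after quantile normalization (5540 higher, 5086 lower) and 54.1% after median centring (6099 higher, 5180 lower), which moved the median of all probe sets to 0.07 and 0.05.

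Large differences were common in both directions. A difference of at least 16-fold was called for 509 probe sets higher in the ovary, of which 201 reached 64-fold and 166 reached 100-fold, and for 1106 lower, of which 269 reached 64-fold and 155 reached 100-fold. Signals at the floor were unequally shared: male body lay at the floor on all 3 arrays for 199 (4.28%) of the higher probe sets, whereas the ovary did so for 2826 (44.0%) of the lower ones. In these bulk tissues fewer cells of a type and less RNA per cell cannot be told apart.

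The transcripts furthest above male body were of egg coat proteins, of oocyte regulators and of genes known only by a clone name. The egg coat gene zp2.6 had signals of 19456, 20451 and 18941 in the ovary and of 60.6, 18.6 and 46.8 in male body, with a log2 difference of 8.77 ± 0.24 (SE, n = 3 and 3) and an adjusted p of 4.05e-07 with limma. The claudin-related gene cldnd, of a family of tight junction membrane proteins, reached 17032, 19384 and 15862 in the ovary and 23.6, 20.5 and 15 in male body, all below the floor, which makes it at least 543-fold higher. For btg4, which in vertebrate eggs directs maternal mRNA to deadenylation, the ovary gave 13370, 14828 and 11164 and male body 4.9, 20.7 and 8.7, at least 407-fold higher. Groups lay far apart in each of these genes, the dimmest ovary array being brighter by over 100-fold than the brightest male body array. The other genes among the 15 with the largest differences in this direction were zgc:173856 (9.10), mpv17 (9.0), zgc:173770 (8.91), zpax1 (8.81), zgc:171474 (8.78), zgc:173837 (8.76), zgc:111868 (8.76), zp3a.1 (8.75), si:dkey-229d11.5 (8.72), zp3.1 (8.66), si:ch211-12h2.8 (8.62) and sall4 (8.62), each a log2 difference. Of these, the values of mpv17, zgc:171474, zgc:173837, zp3a.1, si:dkey-229d11.5 and sall4 are bounds, as are those of cldnd and btg4, since male body was at the floor on all 3 arrays. The order within these genes therefore depends on the floor. Probe sets of several of these may be read by transcripts of near-identical family members. The probe sets assigned to mpv17, named for a protein of the inner mitochondrial membrane, disagreed: 3 were higher by 9.0, 8.19 and 8.88, and 1 was lower by -0.95 with mean signals of 3.57 and 62.5.

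In the opposite direction the list was one of fast skeletal muscle, with a few genes of liver and plasma. The fast muscle regulatory light chain mylpfa gave signals of 7.9, 33.8 and 13.7 in the ovary and of 47604, 31010 and 38456 in male body, a log2 difference of -10.20, or 1179-fold, with 2 of the 3 ovary arrays at the floor. The parvalbumins, which buffer calcium in fast fibres, followed with pvalb3 (-9.95), pvalb4 (-9.86), pvalb2 (-9.75) and pvalb1 (-9.68). Also among the 15 were the contractile genes mylz3 (-9.87), tnnt3b (-9.85), tnnc2.2 (-9.71), tnni2a.3 (-9.15) and tpma (-9.14) and the energy-buffering kinases ckmb (-9.73) and ak1 (-9.14). The remaining genes were apoea (-9.28), an apolipoprotein, serpina1l (-9.26), a plasma protease inhibitor, and fgg (-9.05), a chain of fibrinogen. In this direction mylz3, pvalb4, tnnt3b, tnnc2.2, pvalb1, apoea, serpina1l, tnni2a.3, ak1 and fgg were at the floor on all 3 ovary arrays, so their values are bounds and their order depends on the floor. The bound for mylz3 was at least 938-fold. Among genes named further on, the log2 differences of zar1l, zpd, zp2l1, cpeb1a, tbpl2, ccna1, rad21l1, cyp17a1, cyp11a1.1, kpna7, gtf3ab and eif4e1b are bounds because of the male body floor, and those of mcm6, nanos1, psmb13a, psma6l, atp2a1, pgam2, ins, fabp2, hbba2, myl7 and cdh17 because of the ovary floor.

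**Figure D1:**
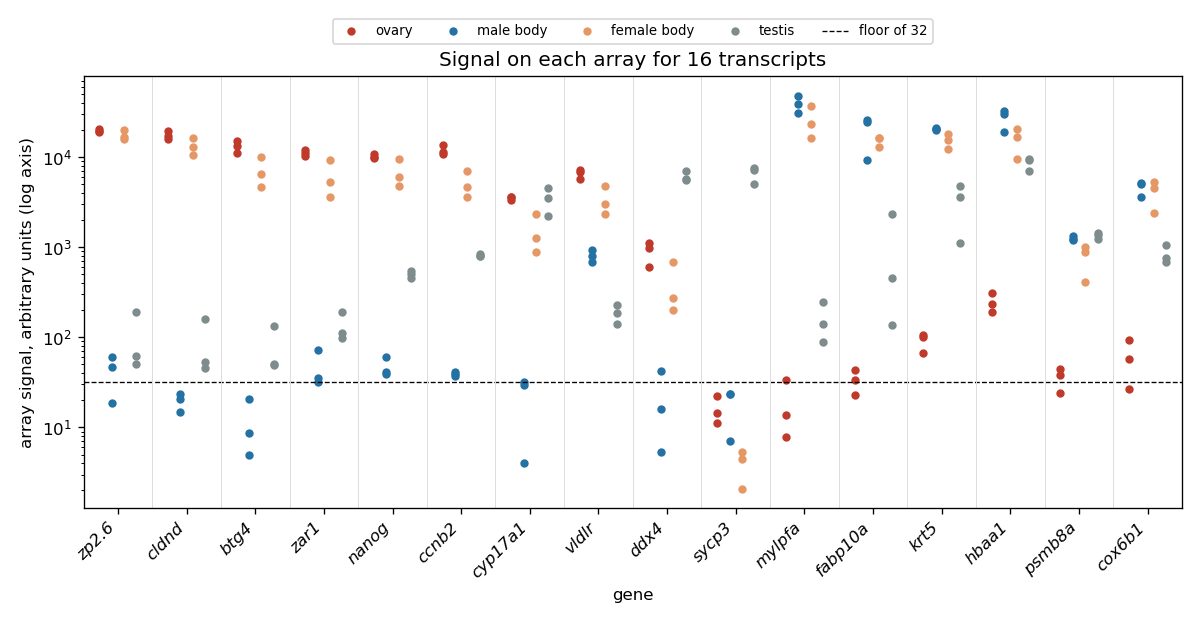
Array signal (arbitrary units, log axis) of 16 transcripts on each of the 12 arrays, 1 point an array, coloured by group, with the floor of 32 as a dashed line. The ovary points of zp2.6, cldnd and btg4 lie at the top of the plot while the male body points lie near or below the floor, and the female body points of these genes lie close to those of the ovary.

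Every tested member of the egg coat list was higher in the ovary, 15 of 15, with a median log2 difference of 7.36 beside -0.35 over all probe sets. This list and those that follow were written with earlier results of these data known, so their counts are a description. The smallest difference was that of zpd (4.37) and the largest that of zpax1 (8.81). The summed signal of the list was 145130 to 150846 on the ovary arrays and 471.7 to 802.4 on the male body arrays. No gene of the list had a mean above 114.5 in male body. Testis, in which the list summed to 2129 to 2254, was below the ovary for 15 of 15 members as well, beside 24.4% of all probe sets tested that were higher in the ovary than in testis and 42.5% that were lower. One member, zp2l1, illustrates the range: its signals were 9263, 9446 and 9333 in the ovary, 7.5, 10.1 and 8.9 in male body, and 8.0, 40.0 and 12.7 in testis.

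Oocyte factors, a list of 33 genes that act in the oocyte or are laid down in the egg, were likewise all higher (33 of 33, median 7.13). As the list was written with earlier results known, this count may have been partly fixed in advance. The RNA-binding translational regulators zar1 and zar1l had log2 differences of 8.0 and 8.58, and the egg's linker histone h1m one of 8.56. Signals of zar1 were 11902, 11040 and 10174 in the ovary and 71.5, 32 and 34.9 in male body. The organiser of the Balbiani body, buc, was higher by 7.13, and the kinase mos, which in Xenopus holds the egg in meiotic metaphase, by 7.14. Among secreted growth factors of the oocyte, gdf3 was higher by 7.95 and bmp15 by 6.08. The least different member was the polyadenylation regulator cpeb1a (1.28), whose signals were 110.3, 68.0 and 62.0 in the ovary and at the floor in male body (9.9, 8.9 and 14.6). That call was lost with a floor of 100.

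Transcription factors known for their part in early embryos did not move as one group. Of 22 tested, 11 were higher, 8 lower and 3 not called, beside 31.2% higher and 43% lower of all probe sets tested. Their median of 0.27 changed sign with a lower floor (-0.22 at a floor of 16 and -0.43 with none). The factors that in zebrafish embryos open the zygotic genome were high: nanog with 10667, 9817 and 9966 in the ovary and 61.1, 38.9 and 41.4 in male body (7.78), pou5f3 (7.51) and the SoxB1 factor sox19b (5.62). Further higher members were foxh1 (5.25), a partner of Nodal signalling, tbpl2 (4.79), a TBP-related factor of oocytes, and the T-box factor eomesa (3.59). A related SoxB1 gene, sox3, went the other way, with 18.5, 51.4 and 39.2 in the ovary and 423.4, 504.7 and 566.0 in male body (-3.62). The groups did not overlap for either SoxB1 gene, as for 81.2% of all probe sets tested.

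Genes of germ cells and the piRNA pathway, which silences transposons in the germline, were higher for 16 of 17 members (median 4.62). The RNA helicase ddx4, also called vasa, had signals of 1099, 602.9 and 967.2 in the ovary and 41.8, 16 and 5.4 in male body, a difference of 4.62. The Piwi proteins piwil1 and piwil2 differed by 3.93 and 3.87, the germline RNA-binding factors dazl and nanos3 by 5.45 and 7.41, and gtsf1, a Piwi cofactor, by 8.32. The exception was nanos1 (-3.22). Compared with testis, 6 members were higher in the ovary and 11 lower, beside 24.4% and 42.5% of all probe sets tested. The signals of ddx4 in testis were 6990, 5647 and 5517, above every ovary array (-2.80, adjusted p 5.44e-05 with limma), whereas nanos3 was higher in the ovary than in testis by 6.42 and dnd1, which protects germline mRNA, by 1.85.

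Genes of meiosis had a smaller median difference. Of 6 tested members, 5 were higher than in male body (median 2.48), among them ccna1 (8.55), the cohesin rad21l1 (3.90), sycp1 (2.77, adjusted p 0.075 with the methods' test on linear signals) and syce2 (1.90), both of the synaptonemal complex. The axis protein hormad1 was not called, at 58.3, 23.4 and 33.5 in the ovary and 39.3, 26.1 and 3.9 in male body (0.21, adjusted p 0.457 with limma), and was bright in testis (8142, 7056 and 8974). After quantile normalization hormad1 was called higher in the ovary (1.16, adjusted p 0.0019 with limma), and 6 members of the list were higher. A further axis gene, sycp3, was at the floor on all ovary and male body arrays and could not be tested, while in testis it reached 7090, 4958 and 7622. As a check of testis left in the reference, male body means were 17.9 for sycp3, 23.1 for hormad1, 51.4 for syce2, 58.7 for sycp1, 21.1 for ddx4 and 34.0 for amh, the Sertoli cell hormone. In the germline list the male body means ran from 13.8 for kop to 301.4 for nanos1, the latter above its testis mean of 84.9.

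Cell division genes were higher for 54 of 58 members, with a median of 3.38, and 1 was lower. The B-type cyclin ccnb2 gave 10727, 13563 and 11298 in the ovary and 41.7, 39.4 and 37.2 in male body (8.23), and ccnb1 differed by 6.59. The chromosomal passenger birc5b (7.89), the anaphase-promoting complex activator cdc20 (6.37), its inhibitor fbxo5 (5.94) and the S-phase cyclin ccne1 (5.96) were among the furthest apart. The single lower member was the kinesin kif20bb (-1.09), which became 0.16 after quantile normalization. Against testis, 17 members were higher in the ovary and 17 lower, beside 24.4% and 42.5% of all probe sets tested.

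DNA replication genes behaved alike, with 45 of 48 higher and a median of 2.94. Relative to testis, 18 were higher in the ovary and 11 lower, beside 24.4% and 42.5% of all probe sets tested. The licensing inhibitor gmnn differed by 6.71, the licensing factor cdt1 by 5.15, the origin recognition subunit orc6 by 5.43 and the helicase cofactor cdc45 by 5.45. Within the MCM helicase the subunits diverged: 5 of 7 genes were higher, mcm2 by 3.00 and mcm6l by 6.35, and 2 were lower. The signals of mcm3 were 42.4, 12.6 and 36.8 in the ovary, 446.5, 430.6 and 364.7 in male body and 2938, 2213 and 2290 in testis (-3.49 against male body). Likewise mcm6 lay at the floor in the ovary (9.0, 9.0 and 18.6) and at 160.6, 96.5 and 106.7 in male body (-1.89), a call lost with a floor of 100. Its close relative mcm6l was bright in the ovary, at 3484, 2663 and 3368, and low in male body, at 18.6, 12.2 and 55.9.

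Among genes of mRNA storage, decay and translational control, 35 of 53 were higher and 5 lower (median 1.52). Besides btg4 (8.67), zar1l (8.58) and zar1 (8.0), described above, the members furthest apart were the cytoplasmic polyadenylation factor cpeb1b (7.62), the poly(A)-binding protein pabpc1l (7.24) and the oocyte repressor patl2 (7.14). Further down were the RNA-granule proteins caprin2 (6.61) and lsm14b (6.38) and the cap-binding protein eif4e1b (6.57). Of the 11 tested genes of the CCR4-NOT complex, which shortens poly(A) tails, 8 were higher and none lower, with the deadenylases cnot7 (3.82), cnot6a (3.55) and cnot8 (3.15) in front. Compared with testis, 4 of these 11 genes were higher in the ovary and 4 lower, beside 24.4% and 42.5% of all probe sets tested. The lower members included the double-stranded RNA-binding proteins stau2 (-3.05) and stau1 (-1.92) and the mRNA-packaging protein ybx1, whose signals were 3041, 2833 and 3102 in the ovary and 17970, 13862 and 14751 in male body (-2.37).

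Nuclear transport genes were higher for 35 of 43 members and lower for 2 (median 1.5). Against testis, 13 members were higher in the ovary and 17 lower, beside 24.4% and 42.5% of all probe sets tested. The importin kpna7 was the extreme, with 8908, 11393 and 8586 in the ovary and all male body arrays at the floor (20.8, 4.5 and 8.3), at least 298-fold higher. Importin kpna2 and the pore proteins nup35 and ndc1 followed with 3.73, 4.01 and 3.73. A sister importin, kpna3, was lower (-2.33).

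Splicing factors were higher for 38 of 59 genes and lower for 9 (median 0.90). When set against testis, 23 were higher in the ovary and 20 lower, beside 24.4% and 42.5% of all probe sets tested. Of the proteins of the small nuclear ribonucleoproteins (snRNPs) and their associates, the core of the spliceosome, 23 of 32 were higher and 2 lower (median 1.37), with snrpb2 at 3.51 and snrpd3 at 3.46. The SR and hnRNP proteins, which bind pre-mRNA and set splice site choice, had 15 of 27 higher and 7 lower (median 0.46). In that class hnrnpc was higher by 3.12 whereas hnrnpa0a (-4.01), srsf5a (-3.07) and srsf5b (-2.13) were lower. Both the snRNP and the SR and hnRNP group were split off after their values were seen.

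Of 37 follicle and steroid genes 8 were higher and 19 lower, beside 31.2% and 43% of all probe sets, with a median of -0.97. After quantile normalization 10 were higher and 13 lower, and the median was 0.03. For cyp17a1, which makes androgen precursors, the ovary gave 3604, 3636 and 3328 and male body was at the floor (29.7, 4.0 and 31.5), at least 110-fold higher. Its testis signals of 2220, 3544 and 4488 spanned those of the ovary (difference 0.10, adjusted p 0.726 with limma). The side-chain cleavage enzyme cyp11a1.1 was higher than male body by 6.42, hsd3b2 by 4.41 and the BMP receptor bmpr1ba by 3.05. The mitochondrial cholesterol carrier star was lower, with 124.3, 52.0 and 76.4 in the ovary, 364.6, 892.7 and 858.1 in male body (-3.05), and a mean of 9120 in testis. Lower members also included the oestrogen receptor esr2b (-3.20) and the brain aromatase cyp19a1b (-3.33), while the ovarian aromatase cyp19a1a, at 69.6, 29.4 and 146.2 against a male body at the floor, was not called (1.1, adjusted p 0.0838). Markers of gonadal support cells were not called either: gsdf 0.69, amh -0.11 and dmrt1 -0.97.

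Of 8 yolk-related genes tested, 4 were higher, 1 lower and 3 not called (median 0.61), beside 31.2% higher and 43% lower of all probe sets. The receptor vldlr, of the family that takes up vitellogenin, had signals of 6812, 5724 and 7152 in the ovary and 796.4, 675.1 and 924.1 in male body (3.04), and the yolk-processing protease ctsba was higher by 1.91. The receptor lrp1aa was lower by -4.13. Vitellogenins themselves were dim in both: vtg2 gave 124.1, 111.9 and 198.5 in the ovary and 57.5, 15.4 and 16.7 in male body (1.85, a call lost with a floor of 100), and vtg4 (0.43) and vtg3 (-0.45) were not called. In female body vtg2 had signals of 23631, 31932 and 38762, a log2 difference of 9.63 from male body. The ovary's vtg2 signals thus lay above all male body arrays and below all female body arrays.

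Markers of body tissues were lower in the ovary almost throughout. The 36 muscle genes (median -8.06), 32 liver genes (-7.03), 19 pancreas genes (-5.47), 18 intestine genes (-6.51), 31 genes of brain and nerve (-4.39) and 21 eye genes (-5.08) were all lower. Signals of the liver fatty acid binding protein fabp10a were 42.8, 33.8 and 23.1 in the ovary and 25375, 9243 and 24301 in male body (-8.96). Similar separations held for the lipoprotein gene apoa2 (-8.54), the iron carrier tfa (-8.66), the digestive protease ctrb.1 (-7.50), the hormone ins (-6.15), the intestinal fabp2 (-8.64), the brain glycoprotein epd (-8.54), the myelin gene mbpa (-6.95) and the cone phosphodiesterase subunit pde6ha (-7.51).

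The summed signal of each list on the ovary arrays was set against its male body mean. It was 2.16% to 2.37% for muscle, 0.487% to 0.531% for liver, 0.899% to 1.82% for pancreas, 0.26% to 0.382% for intestine, 2.45% to 3.38% for brain and nerve and 1.3% to 1.73% for eye. Of the muscle sum in the ovary 60.7% came from 1 gene, the glycolytic enzyme eno3, and the other muscle genes came to 0.895% to 0.963% of their male body mean. The signals of eno3 were 8280, 7595 and 7206 in the ovary, and it differed by only -1.11, a call lost after median centring (-0.40).

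Skin, blood, heart, matrix, immune and kidney lists were mostly lower, with exceptions. In skin 26 of 28 genes were lower (median -5.67), among them the keratins krt5 (-7.84) and krt4 (-6.93), but the epithelial adhesion gene epcam was higher, with 13848, 14289 and 12046 in the ovary and 4776, 5741 and 6741 in male body (1.23), and the cadherin cdh1 was not called (0.41). With limma cdh1 was called higher after median centring (1.12, adjusted p 0.0064) and without male body array 3 (0.67, adjusted p 0.006). In blood 14 of 18 were lower (median -2.09), with the globins hbaa1 (-6.77) and hbba2 (-7.58) furthest, while the mitochondrial iron importer slc25a37 (2.11) and fech (1.86), the last enzyme of haem synthesis, were higher. The heart list had 7 of 8 lower (median -3.40, myl7 -7.78), matrix and bone 19 of 22 (-4.55) and immune cells 19 of 23 (-3.83). Of the collagens, col10a1a differed by -7.45 and col1a1a by -7.10, the male body signals of the latter being uneven at 27316, 6139 and 23608. On linear signals the methods' test did not call col10a1a (adjusted p 0.11), col1a1a (0.062) or hbba2 (0.069). The adipsin gene cfd (-7.14), the lysozyme gene lyz (-6.78) and the antigen presentation gene cd74a (-5.34) led the immune list.
Kidney genes were lower for 7 of 9 (median -4.20), including the cadherin cdh17 (-6.32). The exception was the channel trpm7 (1.02, adjusted p 0.024 with limma), whose call was lost without ovary array 1 or 3 or any 1 of the male body arrays (0.80 to 1.14, adjusted p 0.051 to 0.094).

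**Figure D2:**
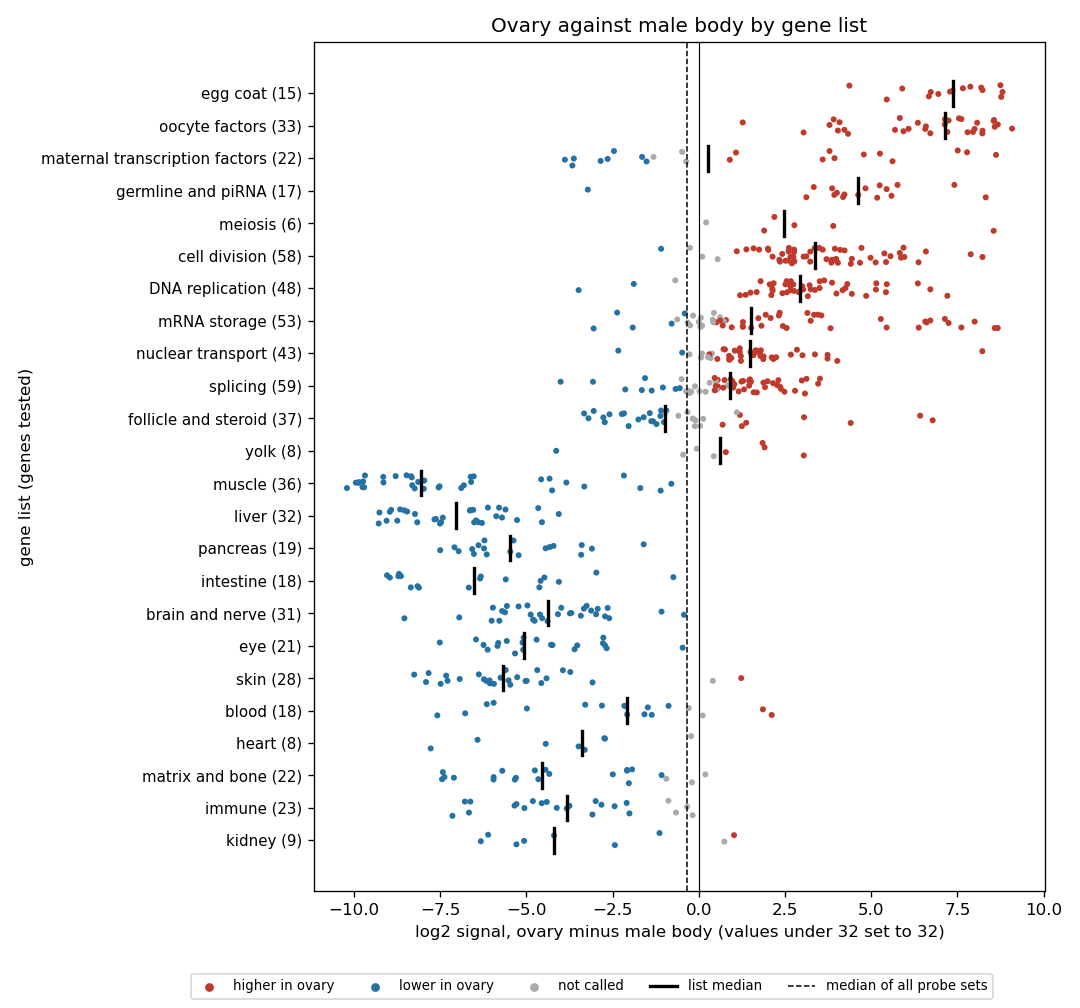
Log2 signal difference (ovary minus male body) of each tested gene, 1 point a gene, in 24 lists with the number of genes in brackets. Red points were higher, blue lower and grey not called. Black bars are list medians, and the dashed line is the median of all probe sets (-0.35). Egg coat and oocyte factors sit on the far right, muscle and liver on the far left, and maternal transcription factors and follicle genes on both sides.

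Components of machines that every cell uses did not share 1 direction. Cytosolic ribosomal proteins were lower for 65 of 67 genes (median -1.53), with rpl5a at -2.90, and the single higher member was rpl7l1 (2.26), a paralogue of a ribosomal protein. Under the alternative scalings the median was -1.01 after quantile normalization and -0.82 after median centring, with 65 and 56 genes lower. Mitochondrial ribosomal proteins went the other way, with 36 of 59 higher and 3 lower (median 0.81), led by mrpl48 (2.48), mrps23 (2.42), mrpl1 (2.41) and mrps28 (2.3). The median of that list was 0.55 after quantile normalization and 1.52 after median centring.

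Subunits of the respiratory chain and ATP synthase were lower for 69 of 77 genes, with none higher (median -1.41). The furthest were forms of cytochrome c oxidase subunits: cox6b1, with 26.9, 56.7 and 92.8 in the ovary and 5043, 5071 and 3577 in male body (-6.35), cox4i1l (-6.31), cox8a (-3.64) and cox4i2 (-3.60). Of 6 genes for factors that assemble complex I, 2 were lower and 4 were higher: ndufaf4 (1.85), ndufaf2 (1.55), ndufaf6 (1.03) and ndufaf8 (0.97). This group was split off after its values were seen.

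Of 49 proteasome genes 9 were higher and 15 lower, beside 31.2% and 43% of all probe sets, and 25 were not called (median 0.00). That balance depended on scaling, with 29 higher and 7 lower after median centring and a median of -0.23 after quantile normalization. Of these 49 genes, 7 belong to the immunoproteasome, the form that cuts peptides for antigen presentation, and all 7 were lower (median -3.99). They were set apart after their values were seen, so the contrast with the other proteasome genes is a description. The catalytic subunit psmb8a gave 38.2, 43.9 and 24 in the ovary and 1342, 1194 and 1236 in male body (-5.06), and psmb13a (-4.67), psme1 (-4.22), psme2 (-3.99) and psmb9a (-2.09) were also lower. Markers of immune cells, given above, moved in the same direction, and their part in this difference was not tested. The other 42 genes had 9 higher and 8 lower (median 0.07). In that group the nuclear activator psme3 (2.00) and the assembly chaperones psmd10 (2.32) and psmg2 (1.52) were higher and psma6l (-3.88) was lower.

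**Figure D3:**
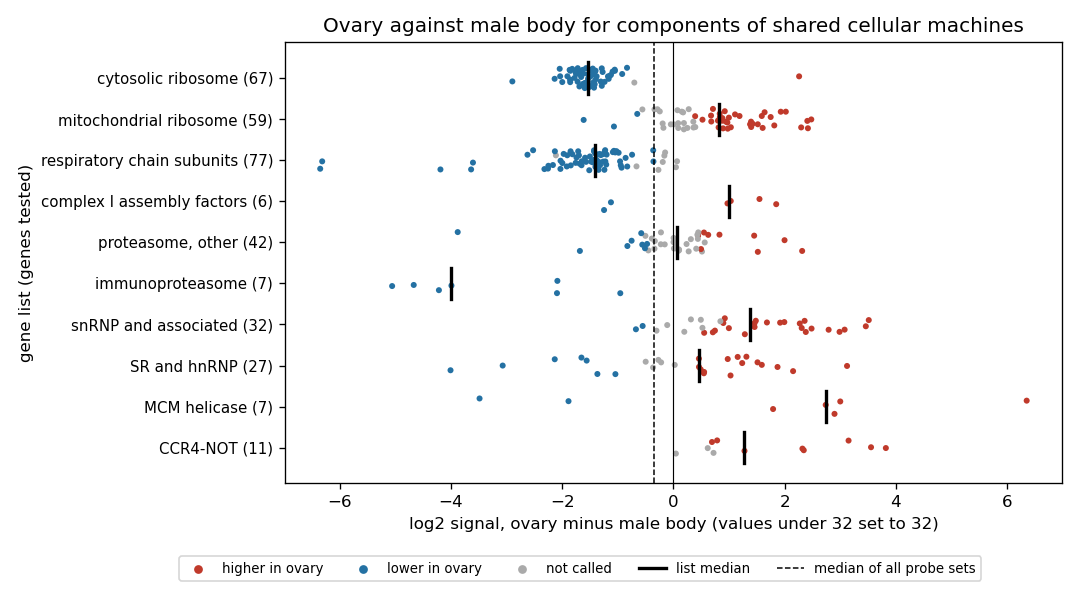
Log2 signal difference (ovary minus male body) of each tested gene in 10 groups of genes for shared cellular machines, 1 point a gene, red higher, blue lower and grey not called. Black bars are group medians and the dashed line the median of all probe sets. Cytosolic ribosome (-1.53) and respiratory chain subunits (-1.41) lie left of 0, mitochondrial ribosome (0.81) and snRNP proteins (1.37) right of it, and the immunoproteasome (-3.99) stands apart from the other proteasome genes (0.07). Groups other than the cytosolic and mitochondrial ribosome were split off after their values were seen.

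Several proteins come in a form typical of eggs or broadly expressed and a related form typical of other tissues. Of 23 such pairs listed, both genes were measured for 17. The pairs, and which gene of each was named first, were written with earlier results of these data known. Their counts and order are therefore a description. Among the first-named genes 10 were higher in the ovary and 4 lower, and among the second 6 were higher and 11 lower. Opposite directions were found in 4 pairs: the importins kpna7 (8.22) and kpna3 (-2.33), the poly(A)-binding proteins pabpc1l (7.24) and pabpc1a (-0.96), mcm6l (6.35) and mcm6 (-1.89), and the creatine kinases ckbb (0.57) and ckma (-8.47). The call of pabpc1a was lost after median centring (-0.24).

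Both genes were higher in 6 pairs, and in each the gene listed as the egg form differed more. These were the cyclins ccna1 (8.55) and ccna2 (5.56), the 5S rRNA gene factors gtf3ab (8.07) and gtf3aa (2.79), cpeb1b (7.62) and cpeb4a (3.34), the histone chaperones npm2b (7.55) and npm1a (0.77), the histone mRNA-binding proteins slbp2 (7.21) and slbp (4.25), and the cap-binding proteins eif4e1b (6.57) and eif4ea (1.94). Against testis the first gene was higher by 4.07 (ccna1), 6.22 (gtf3ab), 5.09 (cpeb1b), 4.46 (npm2b) and 5.28 (slbp2). For eif4e1b the difference from testis was only 0.39, with mean signals of 3040 in the ovary and 2328 in testis. Among glycolytic and muscle pairs the broadly expressed gene was often not called while the muscle gene was far lower, as with the calcium pumps atp2a2b (-0.09) and atp2a1 (-8.32), ldhba (-0.13) and ldha (-5.15), and pgam1a (-0.25) and pgam2 (-8.24). After median centring the first gene of each of these 3 pairs changed sign and was called higher. The values were 0.62 for atp2a2b, 0.58 for ldhba and 0.46 for pgam1a (adjusted p 0.0085, 0.018 and 0.041 with limma). After quantile normalization pgam1a was instead called lower (-0.49, adjusted p 0.025 with limma). The calls of these genes thus depended on the scaling. In 2 of the 4 pairs with both genes lower, eno1a (-3.14) and eno3 (-1.11), and gapdhs (-4.02) and gapdh (-1.17), it was the first that was further down. The first gene of these 2 pairs was also the dimmer one in the ovary. Mean ovary signals were 521.5 for eno1a, 7694 for eno3, 533 for gapdhs and 12983.5 for gapdh. These values go against listing eno1a and gapdhs as the egg or broadly expressed form.

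**Figure D4:**
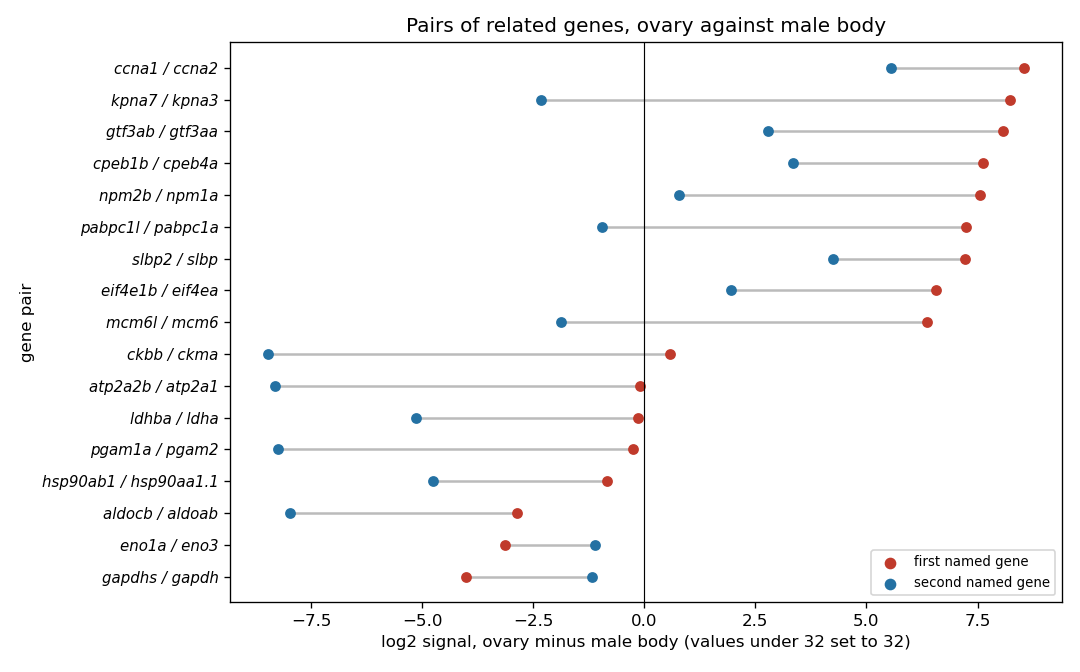
Log2 signal difference (ovary minus male body) for both genes of 17 related pairs, the first-named gene in red and the second in blue, joined by a grey line. The first-named gene of every pair was listed as the egg or broadly expressed form, a label that was not tested here. The ovary signals of eno1a and gapdhs, dimmer than those of eno3 and gapdh, go against that label. Pairs and labels were written with earlier results of these data known. The red point lies right of the blue one in 15 pairs, and left of it for eno1a with eno3 and gapdhs with gapdh.

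Ovary signals were also set beside those of female body and testis. The 509 probe sets at least 16-fold higher in the ovary, which represent 358 named genes, held 25.6%, 26.2% and 24.5% of all signal on the ovary arrays and 0.268%, 0.242% and 0.255% on the male body arrays. On the female body arrays, from fish whose ovaries had been removed, they held 18.4%, 12.4% and 9.48%, and on the testis arrays 3.17%, 2.92% and 2.98%. The median over these probe sets of the mean signal was 2840 in the ovary, 46.1 in male body, 997.5 in female body and 203.3 in testis. Their median log2 difference was 5.32 against male body and 1.57 against female body. As these probe sets were chosen by their difference from male body, the shares and medians are a description. That choice partly fixed the larger difference from male body in advance.

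Female body minus male body, which is the difference between the ovary's contrasts with the 2 bodies, was tested on its own 6 arrays. It was called in the higher direction for 1925 probe sets (12.9% of those tested) and lower for 2688 (18%), with a median of -0.27. These counts depended strongly on the test. The methods' t-test called 21 higher and 32 lower on linear signals and 762 and 622 on log2 signals. With array weights 3139 were higher and 5840 lower. This comparison shares the male body arrays with the main one, and the values are given side by side. Egg coat genes differed by a median of 7.36 for the ovary and 6.24 for female body, and oocyte factors by 7.13 and 5.74, with 32 of 33 called higher in female body. Germline and piRNA genes differed by 4.62 and 3.25. For zp2.6 the mean signal was 17403 in female body, and for btg4 it was 7065. The part of ovarian tissue or eggs left in these bodies was not tested. The counts for female body moved widely when 1 array was left out, from 1036 to 2237 higher and from 817 to 3531 lower, the fewest in both directions being without male body array 3. They were 1177 and 1077 without male body array 1, 1241 and 1309 without male body array 2, and 1205 and 930 without female body array 2, and 1624 were lower without female body array 1.

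The 1106 probe sets at least 16-fold lower in the ovary, representing 710 named genes, held 0.462%, 0.460% and 0.516% of ovary signal and 32%, 29.7% and 31.6% of male body signal. On the female body arrays they held 15.9%, 21.0% and 23.9%, and on the testis arrays 7.01%, 7.88% and 8.05%. Among the female body arrays, array 1 had the highest share of the set at least 16-fold higher in the ovary. It also had the lowest share of the set at least 16-fold lower. Shares of an array's signal add up to a fixed total, so a rise in one lowers the rest. The cause of this pattern was not tested. For testis, 3413 probe sets (24.4%) were higher in the ovary and 5934 (42.5%) lower.

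**Figure D5:**
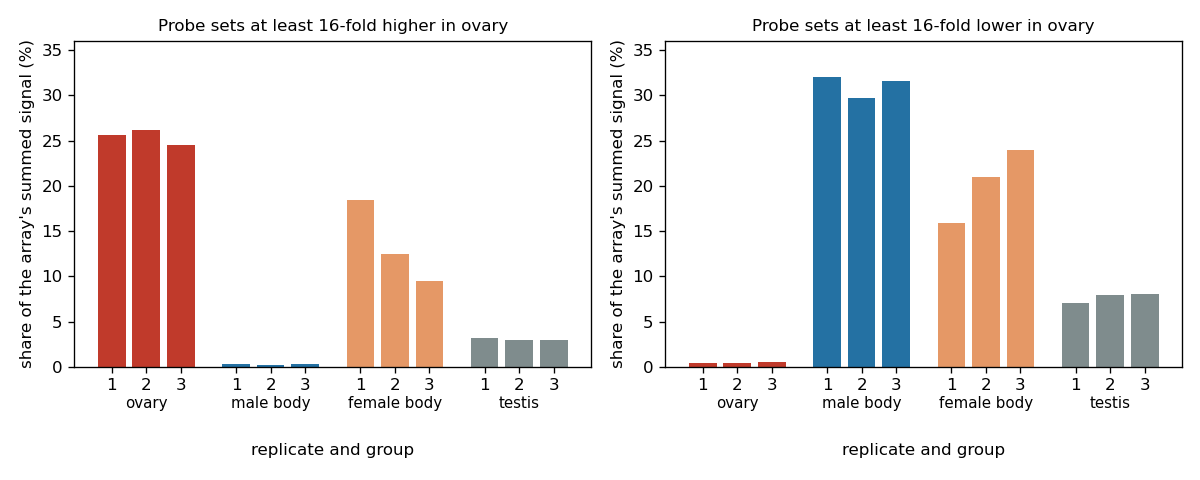
Share of each array's summed signal (%, bars from 0) held by the 509 probe sets at least 16-fold higher in ovary than male body (left) and by the 1106 at least 16-fold lower (right), 1 bar an array, by group and replicate. The higher set holds 24.5% to 26.2% of the signal on ovary arrays and 0.242% to 0.268% on male body arrays, while female body arrays lie in between at 9.48% to 18.4%.

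Probe sets of the same gene did not always have the same call. Of 8648 named genes tested, 1471 had at least 2 probe sets, with all of them higher for 412 genes, all lower for 392 and calls in both directions for 78. In the rest of the 1471 genes, not every probe set was called. Along the chromosomes, in the gene order of RefSeq, the genes at least 16-fold higher in the ovary included 8 runs of neighbours. They comprised the egg coat pairs zp3f.1 with zp3f.2, zp3d.2 with zp3d.1 and zp3a.2 with zp3a.1, the pairs nusap1 with oip5, fhdc2 with slbp, zgc:171474 with zgc:173856 and si:ch211-253b8.2 with zgc:173548, and a run of 3, si:ch211-145c1.1, si:dkey-90l23.2 and si:dkey-90l23.1. Runs among other sets of genes of this size were not counted, so these are a description and not a sign of clustering.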

How the data were processed

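Ovary and male body RNA was measured with 1 Affymetrix zebrafish array a sample. The deposited intensity values were made by the authors with GCOS, each the robust mean of probe pair signals after subtraction of mismatch values. Their notes name GCOS 1.2, MAS5 and GCRMA. The trimmed mean of each array, after 2% was removed at each end, was the same, so no further scaling was applied. Of 15617 probe sets, 115 controls were left out. A floor of 32 was applied to the signals. Only probe sets with a signal over the floor on at least 1 of the 6 arrays entered the test. Differences in log2 signal over these 6 arrays were fitted in R 4.3.3 by lmFit of limma 3.58.1, with eBayes variance moderation that follows intensity, two-sided, with Benjamini-Hochberg adjustment over all probe sets tested at 0.05. Female body was compared with male body, and ovary with testis, in the same way. The number of arrays, 3 a group, limits the precision.

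Gene names came from the platform annotation, updated with RefSeq: 10795 probe sets had 1 symbol, 135 several and 4572 none listed, and the first kind alone was named. Where a gene had several probe sets, the one with the highest mean log2 value over the 6 arrays stood for it. Genes named are the 15 furthest apart in each direction without overlap, up to 6 list members furthest in the list's main direction, up to 4 in the other and 2 nearest to 0, and both genes of each pair; any others were chosen after their values were seen. So were the sub-lists of immunoproteasome, complex I assembly, snRNP, SR and hnRNP, MCM and CCR4-NOT genes. The members, lists and pairs were chosen with earlier results of these data known. Lists were given no test. Alternatives were a replicate block, array weights, leaving out each array, other floors and filters, a fold limit, median centring, quantile normalization, a joint fit over the 12 arrays, a constant prior variance and the methods' t-test. The steps were tested on simulated data, in which smaller differences were missed, so a gene not called is not shown to be unchanged. Tables and plots used Python 3.11.15, NumPy 2.4.6, pandas 2.3.3, SciPy 1.17.1 and matplotlib 3.10.9. RefSeq gene positions served only to order neighbouring genes, and sequences were not used here.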

Additional observations from a re-analysis of the deposited data

How the results depend on the processing

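For ovary against male body, the number of probe sets lower in the ovary fell to 4118 when a mean signal of at least 200 was required, and every other alternative stayed within 1.5 times of 4649 higher and 6422 lower. Leaving out 1 array gave 4380 to 4676 higher and 6062 to 6353 lower. The methods' t-test called 4238 higher and 6036 lower on linear signals and 4355 and 5942 on log2 signals. The replicate numbers do not pair the samples, which are different fish: deviations of same-numbered arrays correlated at 0.004, -0.009 and 0.098, and with the replicate block 4646 were higher and 6487 lower (1899 and 2723 for female against male body, 3292 and 5852 for ovary against testis). Female against male body, with 1925 higher and 2688 lower, gave 3139 and 5840 with array weights, 21 and 32 with the methods' t-test on linear signals, 762 and 622 on log2 signals, and 1036 to 2237 higher and 817 to 3531 lower on leaving out 1 array. Ovary against testis, with 3413 higher and 5934 lower, gave 3876 lower with a mean of at least 200, and 5366 higher and 3812 lower after median centring. Signs changed after quantile normalization for actb1 (0.33), cdx1a (0.26), kif20bb (0.16), mrps33 (0.27), myhz1.3 (0.06), tcf3a (1.1), th (0.09) and vox (1.05), and after median centring for actb1 (0.34), atp2a2b (0.62), ctsd (0.65), kpna6 (0.23), ldhba (0.58), mrpl23 (0.67), mrpl47 (0.06) and pgam1a (0.46). The list medians that changed sign were those of maternal transcription factors (-0.22 at a floor of 16, -0.43 with none), follicle and steroid genes (0.03 after quantile normalization) and the proteasome (-0.23 after quantile normalization, -0.02 with array weights, -0.06 to 0.08 on leaving out 1 array). The cause of these changes was not tested. Over all alternatives, 5439 values of named genes kept direction and side of the threshold, 81 lost their call, 36 gained one and 16 changed sign. Many of these genes were named for their large differences, and the alternatives reuse the same arrays. The counts therefore do not describe calls in general.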
